A study of Mus musculus with 6 samples.

Results

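The circadian clock genes described here are 10 named genes, Arntl, Per1, Per2, Per3, Cry1, Cry2, Nr1d1, Nr1d2, Dbp and Ciart, out of 49315 genes counted in mouse cerebral cortex. They were taken by symbol from the gene identifiers of the count files. All 10 were found, and all 10 were among the 17185 genes with enough counts to test. The cortex came from 2 groups of wild-type mice with 3 libraries each. The shFabp7 group had received AAV-PHP.eB-Gfap-GFP-shFABP7, a vector that crosses the blood-brain barrier and carries GFP and an shRNA against Fabp7 under the promoter of the astrocyte gene Gfap. The shScr group had received AAV-PHP.eB-Gfap-GFP-shScr, the same vector with a non-silencing scrambled shRNA. Both vectors were injected at 21 days of age, and mice of both groups then received lipopolysaccharide (LPS, a bacterial endotoxin) at 1 mg/kg in 3 weekly doses from 4 months of age. The cortex was collected 24 h after the final injection. All mice thus carried a vector and had LPS, and neither effect was measured. No source used here gives the clock hour of tissue collection.

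The clock of mammalian cells is a feedback loop of transcription. The protein of Arntl (also named Bmal1) pairs with CLOCK or NPAS2 and, through a DNA element called the E-box, switches on the Per, Cry, Nr1d and Dbp genes. PER and CRY proteins then block that pair, and the REV-ERB receptors encoded by Nr1d1 and Nr1d2 repress Arntl through ROR elements. In mouse tissues outside the master clock of the hypothalamus, Arntl transcripts peak around the end of the night and Cry1 late in the night, and this pair is called the morning group here. Nr1d1, Nr1d2, Dbp, Ciart and Per3 peak during the day, and Per1, Per2 and Cry2 toward the evening. Astrocytes and neurons both hold such clocks.

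None of the 10 genes passed the threshold (an adjusted p of 0.05 over all genes tested, edgeR's quasi-likelihood test with Benjamini-Hochberg adjustment), where 0.116% of all genes tested did. Per3 passed in DESeq2 and in limma-voom, and no other member passed in either. In DESeq2 4.12% of the genes given an adjusted p passed, and in limma-voom 109 of 17185 genes did. The member with the largest difference was Per3, at a mean of 88.6 CPM (reads scaled to equal library sizes) in shFabp7 and 62.5 CPM in shScr. Per3, Ciart and Nr1d2, all in the daytime group, had every shFabp7 library above every shScr library. That was 3 of 10 members, against 11.4% of all genes tested with all shFabp7 libraries higher (22.9% in either direction). Members whose shFabp7 libraries all lay below the shScr libraries numbered 0, against 11.5% of all genes. By an unadjusted p under 0.05, these 3 members also differed in edgeR, all higher in shFabp7, where 16.8% of all genes differed in either direction and 8.44% were higher. Log2 fold changes (shFabp7 minus shScr) were above 0 in 8 of 10 members, against 48.5% of all genes. They were above 0 in 5 of 5 members of the daytime group, in 2 of 3 of the evening group and in 1 of 2 of the morning group. Without TMM factors the count was 6 of 10, since Nr1d1 and Cry2 were then just below 0, and with the regional score described with Per3 it was 5 of 10. The median log2 fold change was 0.09 over the 10 members and -0.0065 over all genes tested, and the median size of the change was 0.13 and 0.14.

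Total counts were 16914012 to 18991235 in shFabp7 libraries and 17789433 to 18760154 in shScr libraries. Fabp7, the target of the shRNA, had 93, 41 and 66 reads in shFabp7 libraries 1 to 3, against 484, 285 and 290 reads in shScr libraries 1 to 3. Its log2 fold change was -2.31, yet its edgeR adjusted p of 0.0704 did not pass the threshold. The adjusted p of Fabp7 was 3.44e-12 in DESeq2 and 0.0424 in limma-voom. The edgeR threshold was thus missed by the shRNA target too. Of the members, Per3 alone passed in DESeq2 and limma-voom as Fabp7 did. Markers of cortical excitatory neurons, 8 of 8 with a log2 fold change above 0, had a mean log2 CPM of 7.32 to 7.51 in shFabp7 libraries and 6.20 to 7.30 in shScr libraries. Their summed level was 5748 to 6564 CPM in shFabp7 and 3935 to 5275 CPM in shScr, with shScr library 1 the lowest. Markers of thalamus and hypothalamus summed to 25.9 to 28.3 CPM in shFabp7 and 30.4 to 100.4 CPM in shScr, again with shScr library 1 apart, and 1 of the 5 tested was above 0. Hippocampal markers, 1 of 6 above 0, summed to 112 to 135 CPM in shFabp7 and 124 to 244 CPM in shScr. Striatal markers, 3 of 6 above 0, summed to 395, 330 and 1003 CPM in shFabp7 libraries 1 to 3. In shScr libraries 1 to 3 they summed to 790, 338 and 486 CPM, so shFabp7 library 3 was the highest. Choroid plexus and ependymal markers, 0 of the 4 tested above 0, summed to 8 to 14 CPM in shFabp7 and 11 to 25 CPM in shScr. The 9 astrocyte markers, 4 of 9 above 0, summed to 4830 to 5322 CPM in shFabp7 and 4626 to 5107 CPM in shScr. Their mean log2 CPM went the other way, at 7.61 to 7.70 in shFabp7 and 7.72 to 7.81 in shScr, without overlap. Microglial markers had 1 of 6 above 0. The mean log2 CPM of these microglial markers, 5.13 to 5.32 in shFabp7 and 5.36 to 5.39 in shScr, did not overlap either. For oligodendrocyte, interneuron and endothelial markers the mean log2 CPM overlapped between groups. Across the lists, 0 of the marker genes were at 0 in every library. In bulk tissue, fewer cells of a type and less RNA per cell cannot be told apart. Sex is not in the labels, and Xist against Y-linked genes read shFabp7 library 1 and shScr libraries 1 and 2 as male and the other 3 as female. Xist minus the Y-linked mean (log2 CPM) was -4.30 to -3.53 in the libraries read as male. It was 7.80 in shFabp7 library 2, 10.8 in shFabp7 library 3 and 11.3 in shScr library 3.

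Per3 encodes a PERIOD protein that is thought to be less essential for rhythm than its relatives. The gene (ENSMUSG00000028957) is on the minus strand of chromosome 4, from 151003652 to 151044665. Per3 had 78.5, 94.9 and 92.3 CPM in shFabp7 libraries 1 to 3, against 60.3, 67.5 and 59.6 CPM in shScr libraries 1 to 3. The groups did not overlap, and the lowest shFabp7 library was the first. The log2 fold change was 0.50 ± 0.085 (SE), a mean level of 142% of that in shScr. Its edgeR adjusted p of 0.0564 stood just outside the threshold, and it ranked 45 of 17185 genes by p. DESeq2 gave an adjusted p of 0.000511, where 4.12% of the genes given an adjusted p passed and 2.27% passed as higher in shFabp7. An exact permutation test (two-sided) had p = 0.1, the lowest value possible with 3 libraries against 3.

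The Per3 difference kept its sign under each of 17 alternatives, from 0.39 to 0.58. Its adjusted p ran from 1.69e-08 (no filter on low counts, where 1617 of 30935 genes passed) to 0.338. Per3 passed the threshold in edgeR without shScr library 1 (0.0406), where 182 of 17521 genes passed. It also passed without shScr library 2 (0.0114), where 900 of 17522 genes passed. Its highest adjusted p came without shFabp7 library 2, where 0 genes passed. With a regional score as a covariate, which holds the excitatory, hippocampal, striatal, thalamic and choroid plexus markers, the log2 fold change was 0.41 ± 0.10 (SE), with an edgeR adjusted p of 0.200. Relative to the mean of the excitatory neuron markers, Per3 stood at -1.16, -0.94 and -0.79 (log2) in shFabp7 libraries 1 to 3 and at -0.28, -1.22 and -1.18 in shScr libraries 1 to 3. On that scale shScr library 1 was above all 3 shFabp7 libraries, so the groups overlapped. Between libraries of the same sex, the mean log2 CPM difference was 0.30 in males (1 shFabp7 library, 2 shScr) and 0.65 in females (2 shFabp7 libraries, 1 shScr).

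**Figure D1:**
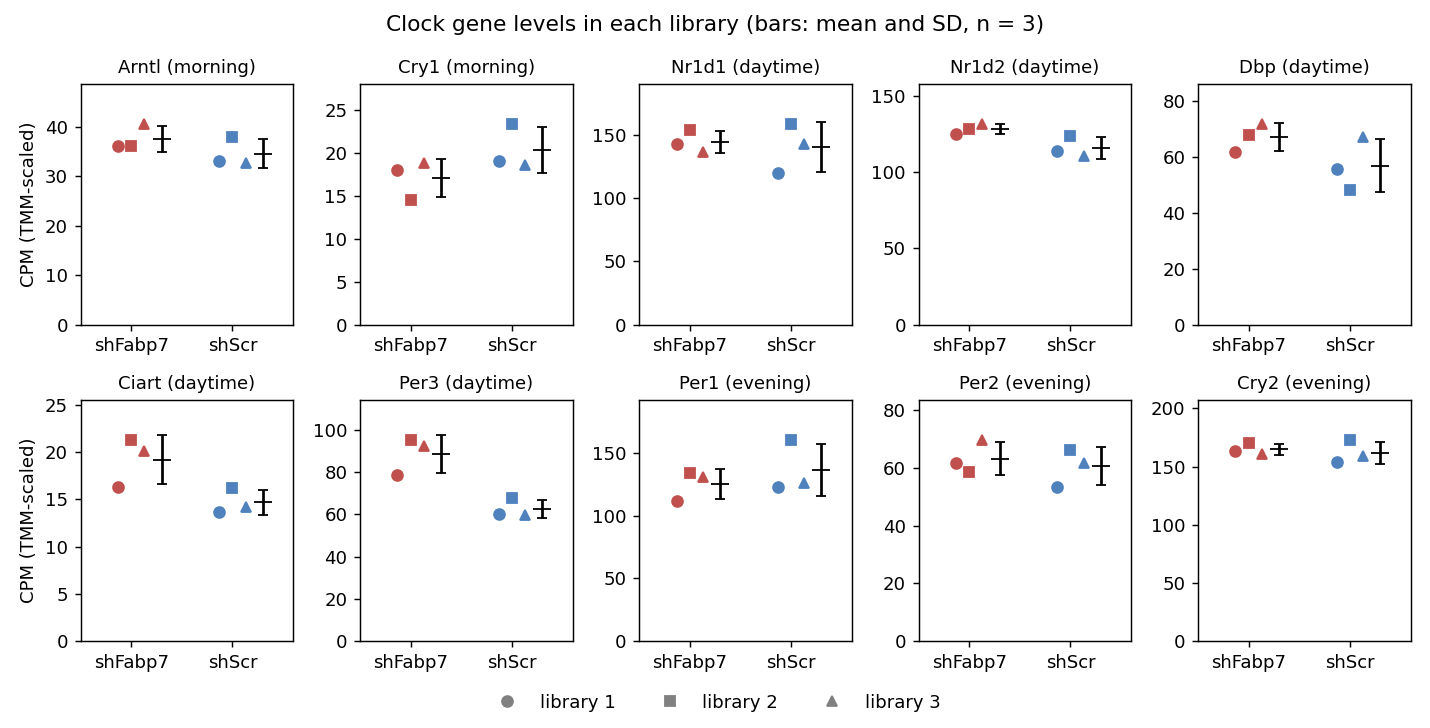
Level of each clock gene in TMM-scaled CPM (vertical axes from 0) in the 3 shFabp7 and 3 shScr libraries, with the mean and SD of each group. Per3, at 78.5 to 94.9 CPM in shFabp7 and 59.6 to 67.5 CPM in shScr, shows the widest gap. The groups overlap for all members other than Per3, Ciart and Nr1d2.

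The promoter of Per3 is shown because this gene had the largest difference among the members and its window holds the D-box, the element bound by DBP, TEF, HLF and their opponent NFIL3. The window (RefSeq, GRCm38.p6, chr4:151044616-151044915, minus strand) runs from 250 bases before the start site to 50 after it. Capitals mark the D-boxes.
Per3: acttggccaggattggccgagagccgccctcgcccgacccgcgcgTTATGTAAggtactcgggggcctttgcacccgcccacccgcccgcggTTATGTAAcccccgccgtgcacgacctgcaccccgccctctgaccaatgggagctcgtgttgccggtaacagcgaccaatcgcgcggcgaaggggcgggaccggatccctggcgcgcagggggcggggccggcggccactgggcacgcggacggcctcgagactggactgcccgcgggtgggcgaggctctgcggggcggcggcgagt
The 2 copies of TTATGTAA begin 205 and 158 bases before the start site.

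Ciart (also called Chrono) encodes a repressor of the ARNTL and CLOCK pair. The gene (ENSMUSG00000038550) is on the minus strand of chromosome 3, from 95878503 to 95882251. Ciart had 16.3, 21.2 and 20.1 CPM in shFabp7 libraries 1 to 3, against 13.7, 16.2 and 14.2 CPM in shScr libraries 1 to 3. The groups did not overlap, although the highest shScr library almost reached the lowest shFabp7 library. The log2 fold change was 0.39 ± 0.12 (SE), with an edgeR adjusted p of 0.178. It did not pass in DESeq2 either, at an adjusted p of 0.153, and the value was 0.24 with the regional score and 0.25 with shScr libraries 1 and 3 both left out. Between libraries of the same sex, the mean log2 CPM difference of Ciart was 0.13 in males and 0.54 in females. The Ciart promoter is shown as the member window with the most E-boxes (RefSeq, GRCm38.p6, chr3:95882179-95882478, minus strand), with capitals for each CACGTG.
Ciart: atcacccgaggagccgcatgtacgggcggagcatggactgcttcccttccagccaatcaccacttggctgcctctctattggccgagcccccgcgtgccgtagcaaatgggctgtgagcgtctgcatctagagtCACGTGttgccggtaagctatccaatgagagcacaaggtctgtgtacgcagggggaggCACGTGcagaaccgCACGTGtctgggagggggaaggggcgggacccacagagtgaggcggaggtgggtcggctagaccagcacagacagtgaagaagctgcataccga
Its 3 E-boxes begin 116, 58 and 44 bases before the start site.

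Both other PERIOD genes had overlapping groups. Per1, a repressor that is also switched on by CREB and by glucocorticoids, had 112, 134 and 131 CPM in shFabp7 libraries 1 to 3, against 123, 160 and 126 CPM in shScr libraries 1 to 3. Among its libraries shScr library 2 was the highest and shFabp7 library 1 the lowest. Its log2 fold change was -0.12 ± 0.11 (SE), with an edgeR adjusted p of 0.636, and without shScr library 2 it was 0.013. It was -0.31 with the regional score and -0.35 with shScr libraries 1 and 3 both left out. Between libraries of the same sex, the mean log2 CPM difference of Per1 was -0.33 in males and 0.07 in females. Per2, which together with Per1 is needed for a stable rhythm in mice, had 61.6, 58.4 and 69.5 CPM in shFabp7 libraries 1 to 3, against 53.3, 66.2 and 61.8 CPM in shScr libraries 1 to 3. Its highest library was shFabp7 library 3 and its lowest shScr library 1, with a log2 fold change of 0.06 ± 0.094 (SE; edgeR adjusted p of 0.777), and its sign turned in 4 of 17 alternatives.

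The cryptochromes Cry1 and Cry2 encode the strongest repressors of the loop. Cry1 had 18.0, 14.5 and 18.8 CPM in shFabp7 libraries 1 to 3, against 19.1, 23.4 and 18.6 CPM in shScr libraries 1 to 3. The groups overlapped, and the extremes were shFabp7 library 2 and shScr library 2. Cry1 was the member with the most negative log2 fold change, -0.25 ± 0.13 (SE; edgeR adjusted p of 0.355), and its sign was negative in each of 17 alternatives, from -0.45 to -0.14. Without shScr library 2 the value was -0.14. Cry2 had 163, 170.2 and 161 CPM in shFabp7 libraries 1 to 3, against 154, 173 and 159 CPM in shScr libraries 1 to 3. Cry2 was the steadiest member, its highest library being 1.12 times its lowest, and its log2 fold change was 0.03 ± 0.063 (SE), with an edgeR adjusted p of 0.877. Its sign turned in 4 of 17 alternatives.

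Arntl (ENSMUSG00000055116), the activator of the loop, is on the plus strand of chromosome 7, from 113207465 to 113314126. It had 36.2, 36.1 and 40.6 CPM in shFabp7 libraries 1 to 3, against 33.1, 38.0 and 32.7 CPM in shScr libraries 1 to 3. The groups overlapped at shScr library 2. The log2 fold change was 0.12 ± 0.088 (SE), with an edgeR adjusted p of 0.519. It was 0.06 when shFabp7 library 3 was left out, 0.19 when shScr library 2 was, and 0.06 with the regional score. With shScr libraries 1 and 3 both left out it was -0.014, against the lone shScr library 2. The Arntl promoter is shown because Arntl is the ROR-element target within the loop (RefSeq, GRCm38.p6, the second of 2 start sites, chr7:113207261-113207560, plus strand). AGGTCA, the half-site that ROR and REV-ERB receptors bind, is in capitals. It begins 31 bases after this start site, and the window of the other start site held 0.
Arntl: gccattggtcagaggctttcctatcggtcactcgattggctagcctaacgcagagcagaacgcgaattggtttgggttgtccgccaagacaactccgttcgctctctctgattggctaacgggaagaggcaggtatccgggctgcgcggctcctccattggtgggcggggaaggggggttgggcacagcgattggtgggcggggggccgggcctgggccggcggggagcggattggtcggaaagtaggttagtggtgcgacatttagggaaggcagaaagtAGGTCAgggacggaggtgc

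The REV-ERB genes, which encode heme-binding receptors that repress Arntl, both had log2 fold changes under 0.2. Nr1d2 had 125, 128 and 132 CPM in shFabp7 libraries 1 to 3, against 114, 124 and 110.4 CPM in shScr libraries 1 to 3. The groups did not overlap, with shScr library 2 just under the lowest shFabp7 library. Its log2 fold change was 0.15 ± 0.063 (SE), with an edgeR adjusted p of 0.278, and the value was 0.098 with the regional score and 0.051 with shScr libraries 1 and 3 both left out. Nr1d1 had 143, 154 and 136 CPM in shFabp7 libraries 1 to 3, against 119.8, 159 and 143 CPM in shScr libraries 1 to 3. The shScr libraries spanned all of the shFabp7 values, and the log2 fold change was 0.04 ± 0.099 (SE), with an edgeR adjusted p of 0.880. Its sign turned in 5 of 17 alternatives. Nr1d1 shares 263 exon bases, 8.55% of its exons, with Thra on the opposite strand, a thyroid hormone receptor gene with 69082 reads over the 6 libraries against 15277 for Nr1d1. Thra had a log2 fold change of -0.17. No source used here states whether reads were counted by strand, so Nr1d1 values are uncertain.

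Dbp encodes a D-box activator and is a direct E-box target often read as an output of the loop. It had 61.9, 68.0 and 71.8 CPM in shFabp7 libraries 1 to 3, against 55.6, 48.1 and 67.0 CPM in shScr libraries 1 to 3. The groups overlapped through shScr library 3 alone. The log2 fold change was 0.24 ± 0.12 (SE), with an edgeR adjusted p of 0.341. The value depended on single shScr libraries, at 0.14 without shScr library 2 and 0.38 without shScr library 3. With shScr libraries 1 and 3 both left out, so that the spread comes from the shFabp7 libraries alone, it was 0.48 with an edgeR adjusted p of 0.0405. Between libraries of the same sex, the mean log2 CPM difference of Dbp was 0.26 in males and 0.06 in females. Dbp shares 539 exon bases, 18% of its exons, with Sphk2 on the opposite strand, and the same limit on strand holds. Sphk2 had a log2 fold change of -0.04.

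**Figure D2:**
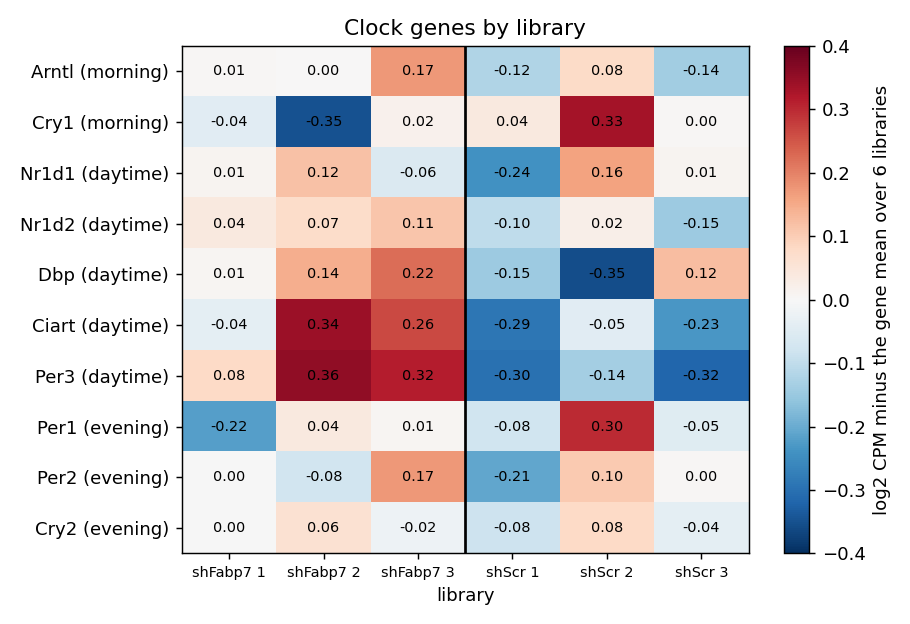
Log2 CPM of each member minus its own mean over the 6 libraries, with shFabp7 libraries 1 to 3 left of the line and shScr libraries 1 to 3 right of it. Per3 and Ciart have their highest values in shFabp7 libraries 2 and 3, and Cry1 runs from -0.35 in shFabp7 library 2 to 0.33 in shScr library 2.

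Per unit of transcript length, the members were ordered by their mean level over the 6 libraries, and the ranges of neighbours were compared. Overlapping ranges do not mean that neighbours changed places within a library. Per2 was above Per3, and Ciart above Cry1, in every library. On the TPM scale Nr1d1 averaged 165.0 ± 12.5 (SD, n = 6), and its lowest library was above the highest library of any other member. Cry2 at 92.2 ± 2.14, Nr1d2 at 87.3 ± 5.92, Per1 at 82.8 ± 8.50 and Dbp at 74.1 ± 11.2 TPM followed, each overlapping its neighbour. Every library of Dbp was above every library of Per2, which averaged 37.7 ± 3.25 TPM. Per3 at 28.1 ± 5.78, Ciart at 26.7 ± 4.75, Cry1 at 20.0 ± 2.82 and Arntl at 17.1 ± 1.37 TPM closed the order, again with overlapping neighbours. The ratio of Dbp to Arntl in TPM was 4.30, 4.74 and 4.45 in shFabp7 libraries 1 to 3 and 4.21, 3.18 and 5.15 in shScr libraries 1 to 3, so the shScr libraries spanned the shFabp7 range. The ratio of Ciart to Arntl was 1.496, 1.96 and 1.64 in shFabp7 libraries and 1.37, 1.42 and 1.44 in shScr libraries, without overlap. The ratio of Nr1d1 to Arntl was 9.65, 10.4 and 8.21 in shFabp7 libraries and 8.84, 10.2 and 10.7 in shScr libraries. The ratio of Per2 to Arntl was 2.19, 2.08 and 2.20 in shFabp7 libraries and 2.07, 2.24 and 2.43 in shScr libraries. Both of these ratios overlapped between groups.

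Morning and evening members were compared through the mean log2 CPM of each phase group, as a description with no test. The morning pair averaged 4.67 ± 0.14 in shFabp7 and 4.73 ± 0.15 in shScr (SD, n = 3 each), a difference smaller than either SD. The evening trio averaged 6.77 ± 0.064 in shFabp7 and 6.78 ± 0.14 in shScr, also within the spread. Evening minus morning was 2.02, 2.26 and 2.03 in shFabp7 libraries 1 to 3 and 1.99, 2.03 and 2.12 in shScr libraries 1 to 3, and these values overlapped. The daytime genes averaged 6.08, 6.27 and 6.23 in shFabp7 libraries 1 to 3, against 5.85, 5.99 and 5.95 in shScr libraries 1 to 3. Those groups did not overlap, and the difference of 0.27 exceeded both SDs (0.099 in shFabp7 and 0.075 in shScr). Within the daytime genes the differences were uneven, from 0.04 for Nr1d1 to 0.50 for Per3.

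The mean of all daytime and evening members minus that of the morning pair stood at 1.74 ± 0.17 in shFabp7 and 1.52 ± 0.091 in shScr (SD, n = 3 each), a difference of 0.23. The value in shFabp7 libraries 1 to 3 was 1.63, 1.94 and 1.66, and in shScr libraries 1 to 3 it was 1.49, 1.44 and 1.62. The groups were apart by little, since shScr library 3 was just under shFabp7 library 1. Without shFabp7 library 2 the difference was 0.13. With Arntl alone as the morning gene it was 0.042.

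**Figure D3:**
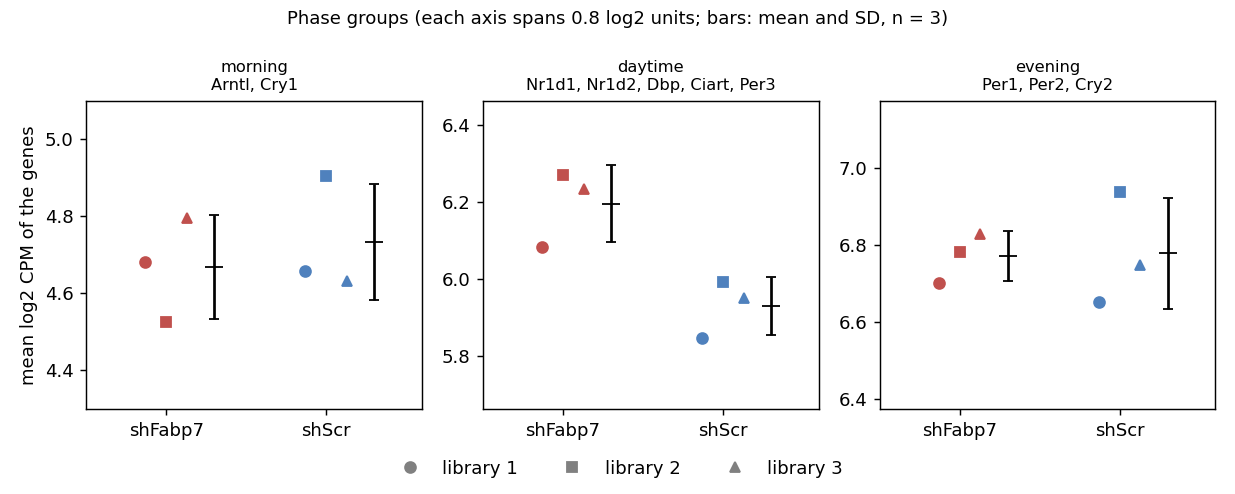
Mean log2 CPM of the morning, daytime and evening members in each library, with shFabp7 left of shScr, the mean and the SD of 3 libraries, and vertical axes of equal span. The daytime groups do not overlap (6.08 to 6.27 in shFabp7, 5.85 to 5.99 in shScr), and the morning and evening groups do.

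Of 21 further clock genes, 0 passed the threshold in edgeR, 0 in limma-voom and 2 in DESeq2, where 4.12% of all genes given an adjusted p passed. At an unadjusted p under 0.05 in edgeR, 4 were higher (Arntl2, Rorb, Hlf and Wee1) and 1 lower (Nampt), beside 8.44% of all genes higher and 16.8% in either direction. Log2 fold changes were above 0 in 15 and below 0 in 6, beside 48.5% of all genes above 0, and Usp2 went below 0 without TMM factors. The median was 0.13. Their groups did not overlap with shFabp7 higher in 8 and with shFabp7 lower in 0, beside 11.4% and 11.5% of all genes. Both DESeq2 calls were higher in shFabp7: Hlf, a D-box activator, and Rorb, a ROR receptor that is also a marker of layer 4 cortical neurons. Hlf had 272, 353 and 298 CPM in shFabp7 libraries 1 to 3, against 146, 259 and 212 CPM in shScr libraries 1 to 3, a log2 fold change of 0.58 ± 0.23 (SE), with an edgeR adjusted p of 0.293 and a DESeq2 adjusted p of 0.0243. Its groups did not overlap, and shScr library 1, which also had the lowest excitatory neuron markers, was the lowest. Rorb had 33.5, 51.4 and 43.3 CPM in shFabp7 libraries 1 to 3, against 26.3, 35.2 and 24.9 CPM in shScr libraries 1 to 3, a log2 fold change of 0.57 ± 0.19 (SE), with an edgeR adjusted p of 0.222 and a DESeq2 adjusted p of 0.0352. The Rorb groups overlapped.

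The genes of the ARNTL partners and of its paralog had log2 fold changes above 0, and none passed. Clock, its main partner, had a log2 fold change of 0.05, Npas2, the forebrain partner, 0.27, and Arntl2, the paralog of Arntl, 0.45 with an SE of 0.15. Arntl2 averaged 19.3 CPM in shFabp7 and 14.1 CPM in shScr, and both Npas2 and Arntl2 had groups that did not overlap. Rora, a receptor that competes with REV-ERB for ROR elements, had 0.22. Tef, the third PAR-domain D-box activator, had 0.13 with groups that did not overlap, and Nfil3, the repressor of the same element, had -0.33 with an SE of 0.15, the most negative value among these 21 genes and the 10 members.

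The E-box repressors Bhlhe40 and Bhlhe41 had log2 fold changes of 0.28 and -0.08. The kinases that phosphorylate PER proteins, Csnk1d and Csnk1e, had -0.06 and 0.17, and Gsk3b had 0.09. Fbxl21, a ubiquitin ligase subunit that acts on CRY proteins, was under 5 CPM in both group means and had -0.18. The ligase subunits Btrc and Fbxw11, which act on PER proteins, had 0.13 and 0.08. Of the outputs, Wee1, a cell cycle kinase with E-boxes, averaged 28.3 CPM in shFabp7 and 20.8 CPM in shScr, with a log2 fold change of 0.44 and an SE of 0.13 (edgeR adjusted p of 0.165), and its groups did not overlap. Nampt, an enzyme of NAD synthesis, had -0.18, Noct, a phosphatase of NADP(H), -0.06, the deubiquitinase gene Usp2 0.03 and the replication-fork gene Timeless 0.24.

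**Figure D4:**
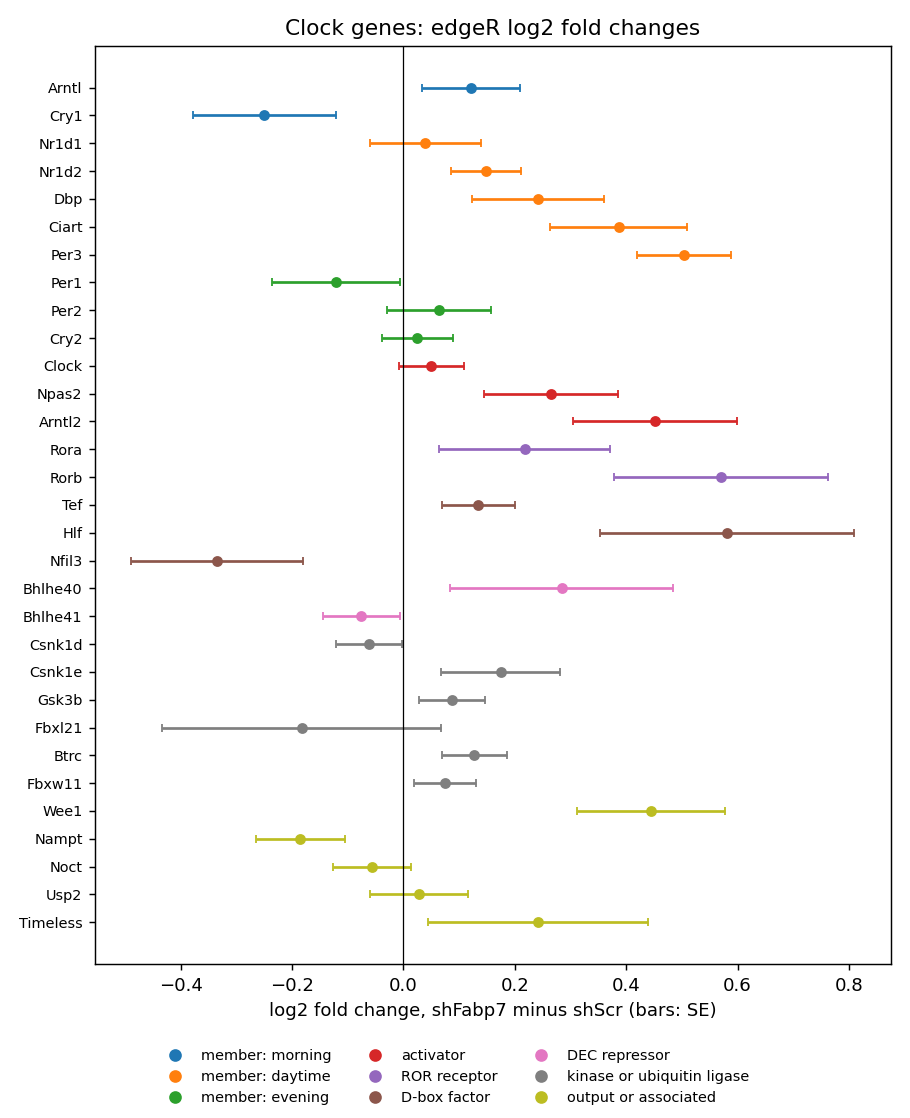
Log2 fold change (shFabp7 minus shScr, horizontal axis) with its SE for the 10 members and 21 further clock genes, coloured by phase or role. Hlf (0.58), Rorb (0.57) and Per3 (0.50) lie farthest to the right and Nfil3 (-0.33) farthest to the left, and Per3 has the smallest SE of the 4.

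RefSeq promoter windows were found for 9 of the 10 members, 11 windows in all, and Per2 had none in the table. The E-box CACGTG was in windows of 3 members (Ciart, Cry1 and Per1), beside 7.15% of all 32851 windows. The D-box, searched as TTATGTAA or TTACGTAA, was in the Per3 window alone, beside 1.06% of all windows. AGGTCA was in windows of 3 members (Arntl, Nr1d2 and Per1), beside 16.3%, and the cAMP response element TGACGTCA in 0, beside 1.79%. These shares are of windows, not of genes. Arntl and Per1 had 2 windows each, and their matches were in 1 of the 2. A match is a description of the letters, not of a bound site. Both strands were searched, and no matches of different motifs overlapped in these windows. Of the 3 members whose groups did not overlap, Per3 had D-boxes only, Ciart E-boxes only and Nr1d2 a single AGGTCA only. The Nr1d2 window completes that set (RefSeq, GRCm38.p6, chr14:18239057-18239356, minus strand), with AGGTCA in capitals beginning 77 bases before the start site.
Nr1d2: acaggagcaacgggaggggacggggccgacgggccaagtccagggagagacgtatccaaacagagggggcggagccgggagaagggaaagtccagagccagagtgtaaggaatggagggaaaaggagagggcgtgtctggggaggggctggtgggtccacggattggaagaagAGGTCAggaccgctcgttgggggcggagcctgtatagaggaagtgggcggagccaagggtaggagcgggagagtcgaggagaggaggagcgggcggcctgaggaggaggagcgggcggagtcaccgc

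The genes whose pattern over the 6 libraries was nearest to that of Arntl, by root-mean-square distance of centred log2 CPM among 13708 genes, were Fzd6, a Wnt receptor gene (0.021), Gca, which encodes grancalcin (0.023), and Mal, a myelin-associated gene (0.027). The root-mean-square deviation of Arntl itself was 0.11. Nearest to Dbp, with a deviation of its own of 0.20, were Tnfrsf4, a costimulatory receptor gene (0.039), Dna2, a nuclease-helicase gene (0.056), and Kifc5b, a kinesin gene (0.057), all 3 at under 5 CPM. With so many genes and only 6 libraries, close matches of this kind are a description.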

How the data were processed

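The 6 mouse cortex libraries were each prepared from 0.5 µg of total RNA using Illumina's stranded mRNA chemistry, per the labels' protocols. Sample titles gave the groups and replicate numbers. The labels do not say that replicates are separate animals, but the sex read from the data differed within each group, so each group holds RNA of at least 2 animals. The p-values cover variation among these 6 libraries. The deposited files, laid out as featureCounts writes them, hold raw counts per gene and summed exon lengths in bases. Tools listed in the submitters' processing notes, without role or order, are Subread 1.5.2, STAR 2.5.2b, Trimmomatic 0.36 and DESeq2, with build GRCm39. Of 49056 gene identifiers found in GENCODE M21 (GRCm38), 44823 (91.4%) had the same position, and coordinates are read as GRCm38. Of the 49315 genes, 48970 had a symbol.

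Genes were filtered with filterByExpr and scaled with TMM. The test was edgeR 4.0.16 (quasi-likelihood, robust, group alone) in R 4.3.3, two-sided, with Benjamini-Hochberg adjustment over 17185 genes and a threshold of 0.05. An SE is the log2 fold change over the square root of F. CPM are TMM-scaled, log2 CPM used a prior count of 2, and TPM used the files' lengths. Alternatives were other factors and filters, DESeq2 1.42.0, limma 3.58.1 (voom), covariates, a block and libraries left out. The regional score is the mean log2 CPM of markers of other brain regions minus that of excitatory neuron markers. Arntl shares 33 exon bases (0.439% of its exons) and Cry2 295 (4.67%) with genes on the opposite strand. Those genes had 16 and 318 reads in all. How far the unknown strand setting touches the values of Arntl and Cry2 was not tested. Scripts were tested on simulated counts. The members and lists were chosen with earlier results of these data known. Named genes were Fabp7, the members, 21 genes of a further clock list (the other 2 on it are not reported here) and the 3 nearest patterns to Arntl and to Dbp. Thra and Sphk2 were named after their values were seen. Pairs of libraries differed beyond sampling noise, with a chi-square over its degrees of freedom of 6.29 to 36.0.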

Additional observations from a re-analysis of the deposited data

How the results depend on the processing

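The number of genes called across the genome was 20. It was 1617 with no filter on low counts, 700 in DESeq2, 109 with limma-voom, 629 with the replicate block, 7 with sex as a covariate, 120 with shScr libraries 1 and 3 both left out (an alternative chosen after seeing the data), and 0 to 900 with single libraries left out (0 without shFabp7 library 2 or 3, 900 without shScr library 2). Without shScr library 1 the number of genes called was 182. The cause was not tested. The number of clock members called was 0 in edgeR, where 3 had an unadjusted p under 0.05 (Per3, Ciart and Nr1d2, beside 16.8% of all genes). It was 2 with no filter (Per3 and Ciart), 1 in DESeq2, with limma-voom and with the replicate block (Per3 each time), 1 with shScr libraries 1 and 3 left out (Dbp), and 0 to 1 with single libraries left out (Per3 without shScr library 1 or 2). The replicate numbers are not said to pair samples, and the correlations of same-numbered deviations from group means were 0.081, 0.15 and 0.057. With the block Per3 had a log2 fold change of 0.50 and an edgeR adjusted p of 0.00983, and no other member passed.

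Signs turned for 5 members. Without TMM factors Nr1d1 was at -0.0085 and Cry2 at -0.024. With the regional score Nr1d1 was at -0.19, Per2 at -0.054 and Cry2 at -0.064. With shScr libraries 1 and 3 left out Arntl was at -0.014, Nr1d1 at -0.14, Per2 at -0.068 and Cry2 at -0.068. With single libraries left out Nr1d1 ran from -0.062 to 0.14, Per1 from -0.19 to 0.013, Per2 from -0.018 to 0.14 and Cry2 from -0.0075 to 0.076. The other 5 members (Cry1, Nr1d2, Dbp, Ciart and Per3) kept their sign in all 17 alternatives. The daytime and evening minus morning difference of 0.23 was 0.042 with Arntl alone as the morning gene and ran from 0.13 to 0.28 with single libraries left out. Having 3 libraries a group limits the precision of every member. The SE was largest for Cry1 (0.128) and Ciart (0.122), which had 239 to 440 and 251 to 376 reads a library. SEs did not follow read number alone. Dbp had 0.118 at 904 to 1346 reads a library, and Arntl 0.088 at 593 to 761.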
